A study of Mus musculus with 6 samples.

Results

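The interferon response and antigen presentation genes are a set of 39 mouse genes chosen by name, of 50559 genes in the deposited table. All 39 were found in the table, and all had more than the required 10 counts over the 6 libraries, the fewest being 139. The hypothalamus was sequenced as total RNA in 3 libraries labelled SRC1 KO and 3 labelled wild type. SRC-1, the product of Ncoa1, is a protein that helps nuclear hormone receptors switch genes on, and the labels name the genotypes only as SRC1 KO and wild type. The sources used here do not give the part of the gene removed, the cells that carry the change, or the strain and age of the mice. Whether each library came from its own animal is not stated, and p-values therefore measure only the spread between these libraries, which may be technical.

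Interferons are secreted proteins that cells release on sensing a virus. They bind receptors that activate JAK kinases and STAT transcription factors, and these switch on a large set of genes that block viral growth at many steps. The same signal raises the machinery of MHC class I, by which cells show peptides from their own proteins to T cells. In the brain, a low resting level of this programme is found in microglia, vessels, the cells of the meninges and other glia, while neurons show little MHC class I at rest.

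The promoters of many of these genes carry a shared element, the interferon-stimulated response element or ISRE. Its core was searched as GAAA, then any 2 bases, then GAAA, on both strands of 300-base windows, from 250 bases before to 50 bases after each RefSeq start site. Windows were at hand for 30 of the 39 members, 36 windows in all. The core was present in 14 of those 30 members (46.7%), against 3.99% of all 27025 genes with a window. By window it was present in 41.7% of the members' windows and in 3.44% of all 32851. The STAT-binding GAS core, searched as TTCNNNGAA, which reads the same on both strands, was found in 7 of the 30 members (23.3%) and in 9.55% of all genes. Matches of the 2 cores could overlap, as they did in Bst2 and Ifitm3, and 3 members held both. A match of these letters is a description of the promoter, not a measured binding site.

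The next 8 windows are printed because they hold the ISRE core, as did 14 of the 30 members with a window. Each is given 5′ to 3′ along the gene's strand, with the core in capitals. The sequences come from the RefSeq promoter table, built on GRCm38.p6, and each was placed by its single exact match in GRCm39, the build of the counts.
Ifit1 (chr19:34618170-34618228, plus strand): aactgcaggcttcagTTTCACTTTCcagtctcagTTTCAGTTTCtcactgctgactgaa
Ifit3 (chr19:34560758-34560831, plus strand): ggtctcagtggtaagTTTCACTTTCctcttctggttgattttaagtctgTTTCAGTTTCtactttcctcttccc
Ifit3b (chr19:34585154-34585227, plus strand): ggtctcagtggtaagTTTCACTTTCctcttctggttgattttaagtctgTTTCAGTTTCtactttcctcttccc
Isg15 (chr4:156285317-156285368, minus strand): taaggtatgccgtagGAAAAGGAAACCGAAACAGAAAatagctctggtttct
Bst2 (chr8:71990216-71990261, minus strand): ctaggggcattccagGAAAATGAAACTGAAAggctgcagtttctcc
Ifitm2 (chr7:140535901-140535930, minus strand): ccaccaacagGAAAAGGAAAttgctagaga
B2m (chr2:121978014-121978053, plus strand): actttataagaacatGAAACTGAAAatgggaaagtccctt
Gbp2 (chr3:142326350-142326389, plus strand): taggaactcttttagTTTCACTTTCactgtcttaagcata
Ifit1, Ifit3, Ifit3b and Gbp2 hold the core on the opposite strand, where it reads TTTC, 2 bases, TTTC. The windows of Ifit3 and Ifit3b, neighbouring copies on chromosome 19, differed at 0 of 74 bases. Isg15 holds 3 overlapping cores. All 30 bases of the Ifitm2 window lie in exons of the annotation used for counting, in which Ifitm2 starts further upstream. The same holds for 18 of the 74 bases of Ifit3 and 10 of the 74 of Ifit3b. In Ifitm3 the cores lie just after the start site, at bases 3 to 12 and 20 to 29, in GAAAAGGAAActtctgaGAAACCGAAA (chr7:140590629-140590655, minus strand).

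Ncoa1 was checked first, as the deleted gene. It had 40.3, 37.2 and 38.7 CPM (the count scaled to a common library size with TMM factors) in KO replicates 1 to 3, with a mean of 38.8 ± 1.54 (SD, n = 3) against 126.5 ± 3.94 CPM in WT. The quasi-likelihood test of edgeR gave a log2 fold change of -1.71 ± 0.06 (SE) and an adjusted p of 1.87e-06, and each library matched its label. Totals ran from 39341074 to 46755553 counts in KO and from 36613507 to 42191925 in WT, and 20257 genes were tested. Over all of them 169 passed an adjusted p under 0.05, or 0.834%, with 49 higher and 120 lower in KO. The hypothalamic peptide genes Hcrt, Pmch, Avp, Oxt, Pomc and Agrp had at least 50 counts in every library. Differences between libraries, as chi-square per degree of freedom over genes, ran from 8.01 to 16.9 within groups and from 13.5 to 32.9 across them.

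None of the 39 members passed the threshold in edgeR with the default filter, in either direction. In edgeR with no filter on low counts 966 genes passed over the whole table, against 169 with the default filter. Among the members 5 did, all lower in KO. These were Ifitm3 (adjusted p 0.00484), Nlrc5 (0.0217), H2-K1 (0.0307), Bst2 (0.0318) and Ifit3 (0.0496). Of the 39, 33 had a negative log2 fold change (KO over WT), and the median over the members was -0.23 beside 0.0042 over all genes tested. At an unadjusted p under 0.05, 10 members (25.6%) were lower in KO, as were 7.21% of all genes tested, and 0 were higher, against 5.75% of all genes. DESeq2 called 824 genes, among them 1 member, Ifitm3. With limma-voom 0 members were called, with or without sample quality weights. In 8 members (20.5%) all KO libraries lay below all WT libraries, as in 9.03% of all genes tested, and in 1, Ifit2, all lay above, as in 8.58%. Leaving out a library cannot make separated groups overlap. The median, the number of negative members and the number at an unadjusted p under 0.05 rest in part on WT replicate 2. That library had the highest value of the 6 in 31 of the 39 members (79.5%), whereas it was the highest for 15% of all genes tested. Without it the median over the members was -0.10, 29 of 39 were negative, 7 had an unadjusted p under 0.05 and 0 were called.

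**Figure D1:**
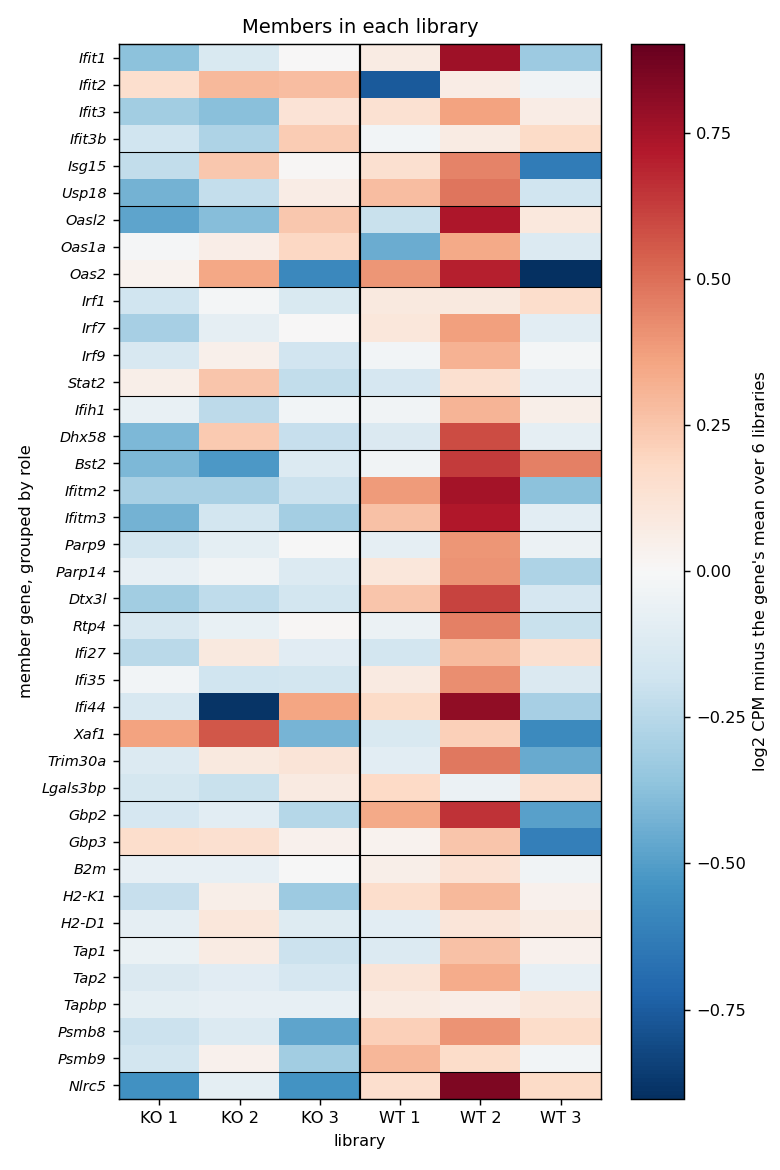
Each row is a member, grouped by role, and each column 1 library; colour gives the log2 CPM minus that gene's mean over the 6 libraries. WT replicate 2 is the highest library in 31 of the 39 rows, and the 3 KO libraries are mostly pale or blue.

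Levels differed widely between the genes. Per kb of exon, which allows genes to be compared, B2m, the light chain of MHC class I, had the highest level of the set at 75.6 ± 2.20 CPM per kb in KO and 81.0 ± 4.54 in WT (SD, n = 3 each). H2-D1, a class I heavy chain, followed at 32.4 ± 2.67 CPM per kb in KO and 33.9 ± 2.51 in WT. Ifi27, a small mitochondrial protein, stood at 16.1 ± 1.88 CPM per kb in KO and 18.3 ± 2.84 in WT. The lowest were the 2′-5′-oligoadenylate synthetases Oas2, at 0.134 ± 0.0449 CPM per kb in KO and 0.159 ± 0.0827 in WT, and Oas1a, at 0.292 ± 0.0220 in KO and 0.267 ± 0.0809 in WT. Genes that respond most to interferon in many cells, such as Isg15 and Ifit1, were near the middle of the set. Isg15 had 1.99 ± 0.332 CPM per kb in KO and 2.03 ± 0.734 in WT, and Ifit1 had 1.47 ± 0.191 in KO and 1.95 ± 0.772 in WT. In each of these genes the ranges of KO and WT overlapped.

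**Figure D2:**
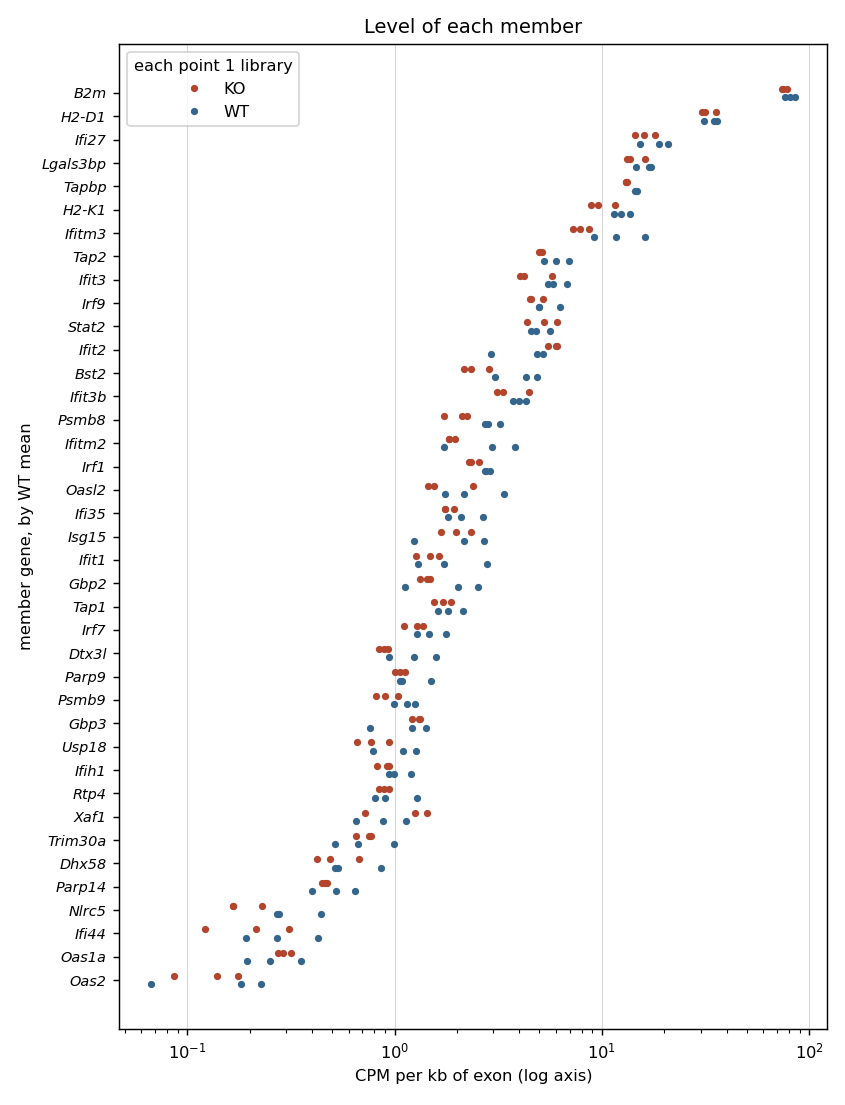
Level of each member in CPM per kb of exon, on a log axis, with 1 point per library, KO above WT in each row, ordered by the WT mean. Levels run from Oas2, near 0.1, to B2m, near 80, and the KO and WT points of most members overlap.

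The lead effectors of the set are the IFIT proteins, which bind foreign RNA and block its translation. Ifit3 (chromosome 19, 34560519 to 34566382, plus strand) had 11.3, 10.8 and 15.4 CPM in KO and 15.5, 18.2 and 14.7 CPM in WT. Replicates 1 and 2 of KO were below every WT library, while KO replicate 3 lay among them. Its log2 fold change, -0.37 ± 0.14 (SE), gave an adjusted p of 0.311 and an unadjusted p of 0.0292. Ifit2 (chromosome 19, 34527961 to 34553934, plus strand), from the same cluster, went the other way, with 23.9, 26.4 and 26.2 CPM in KO and 12.7, 22.6 and 21.1 CPM in WT. The groups did not overlap and WT replicate 1 was far below the rest, for a log2 fold change of 0.44 ± 0.21 (SE) and an adjusted p of 0.454. Without that library it was 0.22. Ifit1 had a log2 fold change of -0.40 ± 0.26 and Ifit3b of -0.14 ± 0.14, with overlapping groups. Ifit3 and Ifit3b are 97.2% identical over 1978 aligned bases of transcript, so reads from either could be lost or split between them.

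ISG15 is a ubiquitin-like protein attached to other proteins, and USP18 removes it and also damps the interferon receptor. Usp18 (chromosome 6, 121222865 to 121247876, plus strand) had 1.17, 1.36 and 1.67 CPM in KO and 1.94, 2.24 and 1.40 CPM in WT. The groups overlapped through WT replicate 3, and the log2 fold change of -0.41 ± 0.24 (SE) had an adjusted p of 0.549. Isg15 was close to even, with -0.03 ± 0.29. Its sign was not stable, being 0.22 without WT replicate 2. Annotation on the other strand covers 12.96% of the exons of Isg15, and a processed pseudogene is 95.2% identical to it over 482 aligned bases.

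The OAS enzymes make the 2′-5′-linked oligoadenylate that activates RNase L, and OASL2 is a family member. Oasl2 (chromosome 5, 115034995 to 115050306, plus strand), the most abundant, had 4.53, 4.84 and 7.49 CPM in KO and 5.49, 10.5 and 6.76 CPM in WT. WT replicate 2 was well above the other 5, which overlapped, and the log2 fold change of -0.43 ± 0.29 (SE) had an adjusted p of 0.629. It was -0.12 without WT replicate 2. Oas1a (0.14 ± 0.30) and Oas2 (-0.25 ± 0.44) had under 1 CPM in every library. Oas1a is 97.6% identical to Oas1g over 1861 aligned bases, which leaves its count uncertain.

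Among the factors that turn these genes on, STAT2 and IRF9 form the complex that binds the ISRE, while IRF1 and IRF7 widen the response. Stat2 (chromosome 10, 128106367 to 128128722, plus strand) had 23.6, 27.1 and 19.5 CPM in KO and 20.4, 25.1 and 21.6 CPM in WT. The WT values lay within the KO range, and the log2 fold change was 0.06 ± 0.12 (SE; 95% interval -0.22 to 0.35). Irf9 (-0.19 ± 0.11) and Irf7 (-0.26 ± 0.18) missed the threshold, at adjusted p 0.56 for Irf9 and 0.636 for Irf7. Irf1 (chromosome 11, 53660841 to 53669200, plus strand) had 7.65, 8.57 and 7.87 CPM in KO and 9.22, 9.24 and 9.70 CPM in WT, without overlap. Unlike most members it was not highest in WT replicate 2, and the log2 fold change of -0.23 ± 0.10 (SE) missed the threshold at an adjusted p of 0.389.

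IFIH1, also called MDA5, senses double-stranded RNA in the cytoplasm, and DHX58, or LGP2, modulates that sensing. Ifih1 (chromosome 2, 62426137 to 62476599, minus strand) had 5.17, 4.61 and 5.32 CPM in KO and 5.32, 6.73 and 5.63 CPM in WT. The groups met at their edge, and the log2 fold change of -0.23 ± 0.14 (SE) had an adjusted p of 0.572. Dhx58 had -0.27 ± 0.27, and 0.0051 without WT replicate 2.

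The 3 membrane restriction factors had the lowest median log2 fold change, -0.64, of the role groups of more than 1 gene, and are singled out for it after the values were seen. All 3 were lower at an unadjusted p under 0.05, as were 7.21% of all genes tested. BST2, or tetherin, holds budding virus on the cell surface. Bst2 (chromosome 8, 71986899 to 71990116, minus strand) had 1.88, 1.74 and 2.30 CPM in KO and 2.45, 3.91 and 3.47 CPM in WT, without overlap. Its mean was 1.97 ± 0.292 CPM in KO and 3.28 ± 0.747 in WT (SD, n = 3 each), a log2 fold change of -0.73 ± 0.21 (SE) with an adjusted p of 0.159, the lowest of the set. It was -0.58 without WT replicate 2. The IFITM proteins stop enveloped viruses from fusing with endosomal membranes. Ifitm3 (chromosome 7, 140589503 to 140590657, minus strand) had 4.69, 5.62 and 5.11 CPM in KO and 7.60, 10.5 and 5.92 CPM in WT. All KO libraries were below WT, WT replicate 2 was the highest, and the log2 fold change of -0.64 ± 0.19 (SE) had an adjusted p of 0.185. DESeq2 gave an adjusted p of 0.0362 for Ifitm3, and the value was -0.39 without WT replicate 2 in edgeR. Ifitm2 had 3.05, 3.05 and 3.27 CPM in KO and 4.90, 6.34 and 2.89 CPM in WT, so that WT replicate 3 was below KO, with -0.59 ± 0.25 and an adjusted p of 0.362. A processed pseudogene is 96.1% identical to Ifitm2 over 432 aligned bases, which leaves its count uncertain. Ifitm3 is 100% identical to the long non-coding RNA Gm57251 over 760 aligned bases. In the annotation used for counting, however, 0% of the exons of Ifitm3 are shared.

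PARP9 and DTX3L work as a pair in ADP-ribosylation and ubiquitination, and their genes overlap head to head on chromosome 16. Dtx3l (35746885 to 35759397, minus strand) had 4.34, 4.59 and 4.80 CPM in KO and 6.42, 8.24 and 4.86 CPM in WT. The groups were apart by a narrow margin at WT replicate 3, and the log2 fold change of -0.51 ± 0.18 (SE) had an adjusted p of 0.258. Parp9, across the shared start, had -0.19 ± 0.16 and Parp14 -0.18 ± 0.18. Exons of Dtx3l and Parp9 share 6.45% of Dtx3l, on opposite strands, and no strand option was set in the counting.

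Guanylate-binding proteins are GTPases that attack the vacuoles of intracellular pathogens. Gbp2 (chromosome 3, 142326424 to 142343769, plus strand) had 3.50, 3.65 and 3.27 CPM in KO and 4.95, 6.18 and 2.77 CPM in WT. The WT libraries enclosed the KO range, and the log2 fold change of -0.41 ± 0.26 (SE) had an adjusted p of 0.579. Its neighbour Gbp3 had 0.18 ± 0.21, and annotation on the other strand covers 16.85% of the exons of Gbp3.

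Lgals3bp (chromosome 11, 118283573 to 118292787, minus strand), a secreted galectin-binding glycoprotein, had 31.3, 30.4 and 37.1 CPM in KO and 39.5, 33.7 and 38.9 CPM in WT. WT replicate 2 was the lowest of the WT libraries here, and the log2 fold change of -0.18 ± 0.09 (SE) had an adjusted p of 0.467. Among the other induced genes, Ifi27 (-0.18 ± 0.12), Ifi35 (-0.27 ± 0.19), Ifi44 (-0.44 ± 0.39), Rtp4 (-0.16 ± 0.20), Xaf1 (0.36 ± 0.29) and Trim30a (0.0064 ± 0.23) did not pass. Ranges of KO and WT overlapped in all 7 genes of this role group.

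**Figure D3:**
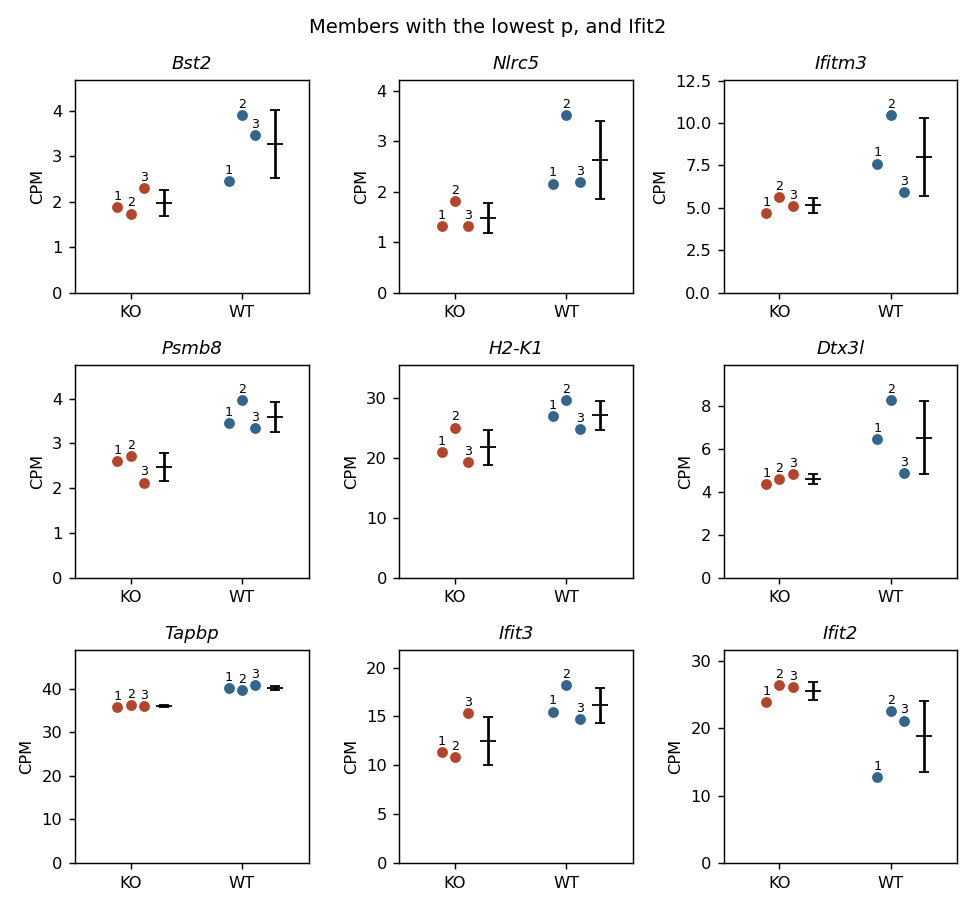
CPM of the 8 members with the lowest p, and of Ifit2, in each library (points, numbered by replicate), with the group mean and SD beside them and axes that start at 0. Bst2, Nlrc5, Ifitm3, Psmb8, Dtx3l and Tapbp have all KO points below all WT points, and Ifit2 has all KO points above.

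Antigen presentation was described from its regulator to its parts. NLRC5 is the transactivator of MHC class I genes. Nlrc5 (chromosome 8, 95160963 to 95253900, plus strand) had 1.31, 1.81 and 1.31 CPM in KO and 2.16, 3.51 and 2.19 CPM in WT, without overlap. The mean was 1.48 ± 0.290 CPM in KO and 2.62 ± 0.773 in WT (SD, n = 3 each), with a fitted level 1.77-fold higher in WT, and the log2 fold change of -0.82 ± 0.25 (SE) was the most negative of the 39, with an adjusted p of 0.171. It was -0.56 without WT replicate 2.

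The heavy chains H2-K1 and H2-D1 pair with B2m to hold the peptide. H2-K1 (chromosome 17, 34214986 to 34219321, minus strand) had 21.0, 25.1 and 19.3 CPM in KO and 27.0, 29.7 and 24.9 CPM in WT. KO replicate 2 just exceeded WT replicate 3, and the log2 fold change of -0.32 ± 0.11 (SE) gave an adjusted p of 0.218. B2m (chromosome 2, 121978168 to 121983563, plus strand), the most abundant of the 3, had 63.7, 63.7 and 67.0 CPM in KO and 69.5, 73.4 and 65.7 CPM in WT. The groups overlapped, and the 95% interval of its log2 fold change, -0.10 ± 0.07 (SE), ran from -0.25 to 0.05. H2-D1 had -0.06 ± 0.08, with an interval from -0.24 to 0.12. H2-K1 and H2-D1 are about 90.3% identical over 1003 aligned bases, which leaves both counts uncertain. Annotation on the other strand covers 22.5% of the exons of H2-K1 and 0% of those of H2-D1.

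Peptides for class I are cut by the immunoproteasome subunits PSMB8 and PSMB9, carried into the endoplasmic reticulum by TAP1 and TAP2, and loaded with the help of tapasin, the product of Tapbp. Psmb8 (chromosome 17, 34417169 to 34420428, plus strand) had 2.60, 2.72 and 2.13 CPM in KO and 3.46, 3.96 and 3.35 CPM in WT. The groups were clear of each other, with a log2 fold change of -0.53 ± 0.17 (SE) and an adjusted p of 0.195, and leaving out WT replicate 2 gave -0.46. Tapbp (chromosome 17, 34138452 to 34148264, plus strand) had the tightest values of the set, with 35.8, 36.2 and 36.1 CPM in KO and 40.1, 39.6 and 40.7 CPM in WT. The difference was small but did not depend on 1 library, since the log2 fold change of -0.16 ± 0.06 (SE, adjusted p 0.302) stayed between -0.17 and -0.15 with any 1 library left out. Annotation on the other strand covers 14.4% of its exons. Tap2 averaged 12.6 ± 0.223 CPM in KO and 15.1 ± 2.13 in WT (SD, n = 3 each), without overlap, with -0.26 ± 0.11 and an adjusted p of 0.332.

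Psmb9 and Tap1 are transcribed away from each other on chromosome 17 from start sites 225 bases apart. The stretch between them (chr17:34406305-34406529, shown along the strand of Tap1) holds no match of the ISRE core, so nothing is in capitals, and it is printed because 2 members share it.
Psmb9-Tap1: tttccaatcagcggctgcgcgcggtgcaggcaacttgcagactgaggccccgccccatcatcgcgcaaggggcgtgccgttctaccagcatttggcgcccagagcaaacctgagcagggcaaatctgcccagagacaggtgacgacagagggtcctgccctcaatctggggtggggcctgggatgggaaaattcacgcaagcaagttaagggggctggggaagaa
Psmb9 had a log2 fold change of -0.30 ± 0.22 (SE) and Tap1 of -0.12 ± 0.15, neither past the threshold. All 5 genes of peptide supply and loading had negative log2 fold changes, whereas 51.1% of all genes tested had positive ones. Of the 5, 3 were lower at an unadjusted p under 0.05, as were 7.21% of all genes tested.

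**Figure D4:**
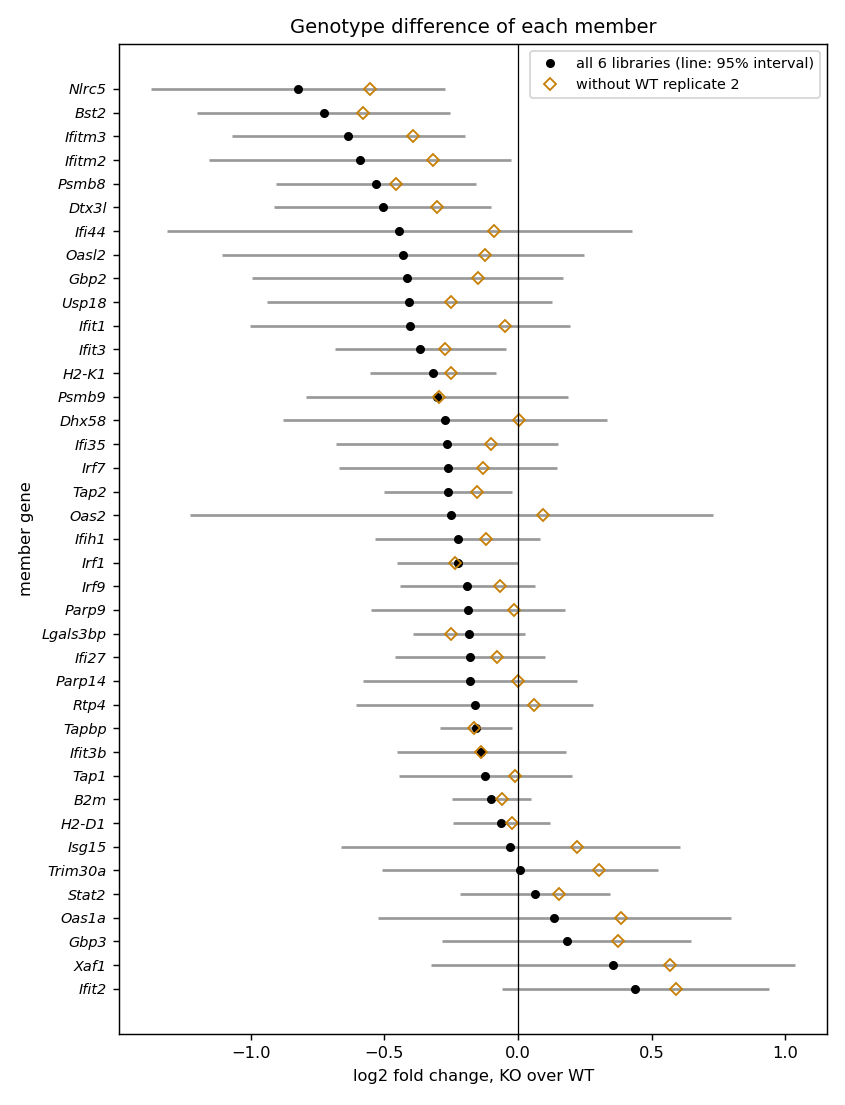
Log2 fold change, KO over WT, of each member with its 95% interval (black points and grey lines, all 6 libraries) and without WT replicate 2 (open diamonds). Most diamonds lie to the right of their black points, and the median of the members is -0.23 with all libraries and -0.10 without WT replicate 2.

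The pattern of WT replicate 2 was described further. It exceeded the mean of WT replicates 1 and 3 in 36 of the 39 members, by a median of 0.45 on the log2 CPM scale, whereas over all genes tested the median was 0.0072. The excess was greatest in Oas2 (0.95), Ifit1 (0.89), Ifi44 (0.86) and Oasl2 (0.79), and near 0 in Ifit3b, Psmb9, Tapbp and Irf1. A low WT replicate 3 also raises this value, as in Oas2, with 32, 37 and 12 counts in WT replicates 1 to 3. WT replicate 3 was the lowest of the 6 libraries in 9 of the 39 members, and KO replicate 1 in 12. The 14 members with the ISRE core in their window had a median excess of 0.59 (0.00034 to 0.89), the 16 whose window lacked it 0.32 (-0.22 to 0.86), and the 9 with no window 0.49 (0.29 to 0.95). These ranges overlapped widely and the difference was not tested. For the log2 fold change between the genotypes the medians were -0.18 with the core, -0.24 without it and -0.25 with no window. The spread also differed, since the median SD of log2 CPM over the members was 0.13 in KO and 0.34 in WT, beside 0.13 and 0.14 over all genes tested.

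Genes upstream of the set were taken from lists by role. Of 10 interferon genes, 5 had 0 counts in every library and 4 had a single count in all. Ifng, the remaining one, had 2, 0 and 3 counts in KO and 4, 5 and 3 in WT, so no interferon could be tested at this depth; a count of 0 allows up to 3 counts. Of 14 receptor and JAK-STAT genes 0 passed in edgeR, with a median of -0.015. Socs3, a feedback inhibitor of cytokine receptors, led them with 1.82 ± 0.752 CPM in KO and 3.44 ± 0.722 in WT (SD, n = 3 each), a log2 fold change of -0.92 ± 0.29 (SE) and an adjusted p of 0.198, with overlapping groups. It passed with DESeq2 (adjusted p 0.0390), with no filter on low counts (0.00573) and without KO replicate 2 (0.0357, log2 fold change -1.29). Ifngr1, a chain of the interferon-gamma receptor, followed with -0.18 ± 0.08. Of 14 tested sensing genes 0 passed in edgeR, and the ubiquitin ligase gene Trim25 (-0.43 ± 0.11, adjusted p 0.124) and Ddx58, which encodes RIG-I (-0.28 ± 0.11), had the lowest p. Trim25 passed with DESeq2 (adjusted p 0.0420) and with no filter on low counts (0.0112).

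Further genes induced by interferon were counted beside the members. Of 29 other interferon-stimulated genes tested, 22 were negative, 0 passed in edgeR and the median was -0.11. Ifitm1, next to Ifitm2 and Ifitm3 in the genome, had 0.953, 1.41 and 1.29 CPM in KO and 2.70, 2.93 and 1.76 CPM in WT. All KO libraries were below WT, and the log2 fold change of -1.01 ± 0.25 (SE) had an adjusted p of 0.0961. It passed with DESeq2 (adjusted p 0.0222), with limma-voom and sample quality weights (0.0466) and with no filter on low counts (0.00302). Oasl1 had -1.72 ± 0.47 (adjusted p 0.134, or 0.0237 with no filter) at under 1 CPM. Of 11 interferon-gamma GTPases and factors 0 passed in edgeR, with a median of 0.041, and Gbp6 (-0.50 ± 0.18) and Tgtp1 (-0.85 ± 0.36) had the lowest p. Of 18 other class I and proteasome genes 0 passed in edgeR, with a median of -0.040, led by the peptide trimmer Erap1 (-0.25 ± 0.09, adjusted p 0.233) and Pdia3 (-0.16 ± 0.08).

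MHC class II, which shows peptides taken up from outside and is made by professional antigen-presenting cells, was counted as a list of its own. Of 8 class II genes tested 0 passed in edgeR, 7 were negative and the median was -0.87. H2-Ab1 had 0.643, 0.806 and 0.811 CPM in KO and 4.19, 3.49 and 1.11 CPM in WT, a log2 fold change of -1.95 ± 0.47 (SE) with an adjusted p of 0.130. H2-Eb1 had 1.48, 1.74 and 1.45 CPM in KO and 4.95, 5.15 and 1.90 CPM in WT, or -1.36 ± 0.36 with an adjusted p of 0.144. In both the groups did not overlap, and WT replicate 3 stood near KO. The same held for H2-Aa (-2.11 ± 0.52) and the invariant chain gene Cd74 (-1.50 ± 0.39), named after their values were seen. Both H2-Ab1 and H2-Eb1 passed without WT replicate 3 (adjusted p 0.00383 and 0.00659) and in DESeq2. H2-Eb1 also passed with no filter on low counts. Ciita, the class II transactivator, had 0.34 ± 0.38.

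Markers of cells that make interferon-induced and class II genes moved with some of these values, and their part in them was not tested. In bulk tissue, fewer cells of a type and less RNA per cell cannot be told apart. All 10 meningeal fibroblast markers were negative, and Lum (-1.50 ± 0.28) fell with an adjusted p of 0.0458. The summed level of the list ran from 138 to 162 CPM in KO. It was 247, 362 and 166 CPM in WT replicates 1 to 3, with replicate 3 near KO. Pdgfra, the highest of the list, gave 78.2 to 97.8 CPM of the sums in KO and 87.4 to 100 in WT. That gene was close to even, with a log2 fold change of -0.07 ± 0.09 (SE). The 7 border macrophage markers summed to between 3.02 and 3.69 CPM in KO and between 3.22 and 11.6 in WT, again highest in WT replicate 2, and 0 of the 5 tested passed. The 15 microglia markers went the other way, with 342 to 386 CPM in KO and 330 to 352 in WT, 11 of them positive and 0 called. Endothelial markers summed to 285 to 306 CPM in KO and 229 to 302 in WT, with 0 of 11 called, and pericyte and smooth muscle markers to 180 to 194 CPM in KO and 139 to 215 in WT. Ptprc, the pan-leukocyte marker CD45, had 2.79, 3.07 and 2.89 CPM in KO and 4.41, 3.83 and 2.38 CPM in WT, a log2 fold change of -0.28 ± 0.22 (SE) with an adjusted p of 0.693. WT replicates 1 and 2 were the highest libraries, as in H2-Ab1, H2-Eb1, H2-Aa and Cd74, but WT replicate 3 was below all KO libraries. Larger differences between the genotypes were in ependymal and tanycyte markers, at 75.3 to 98.8 CPM in KO and 214 to 223 in WT. All 12 were negative, and 8 of them passed an adjusted p under 0.05 in edgeR. All 10 oligodendrocyte markers were positive and 6 passed, at 6653 to 8900 CPM in KO and 4093 to 5233 in WT. Pituitary markers had a median log2 fold change of -2.04, with 5 of 7 tested negative and 1 passing. Their sums overlapped, at 22.1 to 42.5 CPM in KO and 23.3 to 43.8 in WT. Choroid plexus markers summed to 26.9 to 35.5 CPM in KO and 47.7 to 48.5 in WT, with 5 of 7 negative and 0 passing. Of all genes tested, 0.834% passed.

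**Figure D5:**
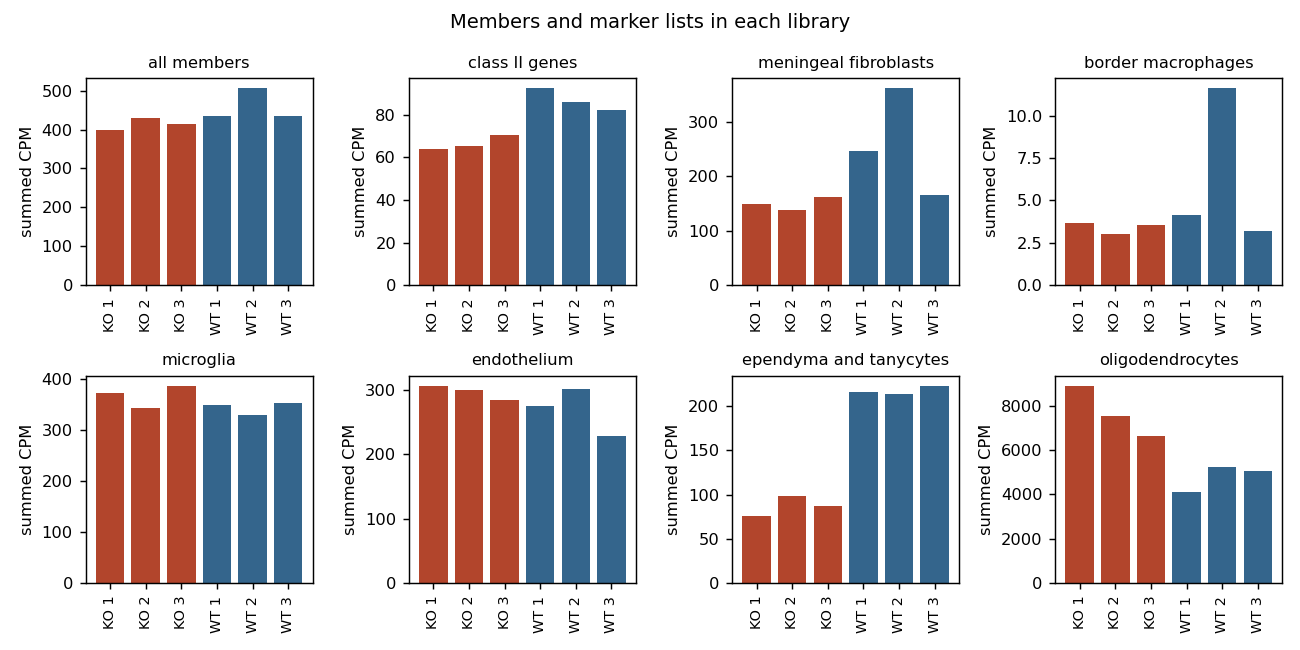
Summed CPM of the 39 members and of 7 gene lists in each library, KO left of WT, with bars from 0. The members, the meningeal fibroblast list and the border macrophage list are all highest in WT replicate 2, while the microglia list is lowest there.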

How the data were processed

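Total RNA of hypothalamus was sequenced in 3 SRC1 KO and 3 WT libraries, extracted with RNeasy and prepared with TruSeq, per the labels' protocols. The deposited values are raw counts per gene that the authors left unnormalized. The submitters' processing notes name STAR 2.7.10a as the aligner, and counting was over RefSeq exons of mm39 (GRCm39) with featureCounts, 2.0.0 per the file headers and 2.0.3 in those notes, with no option for strand or for multi-mapping reads. All value columns were used (0 left out).

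Counts were tested with edgeR 4.0.16 in R 4.3.3 (TMM, default filter by group with a minimum count of 10, robust quasi-likelihood F-test), adjusted over all genes by Benjamini-Hochberg with a threshold of 0.05. SE is the log2 fold change over the square root of F. The log2 CPM values used a prior count of 2. DESeq2 1.42.0, limma 3.58.1, other scalings and filters, a replicate block and leaving out each library were alternatives, and fits were tested on simulated data. Similar transcripts were found with blastn 2.17.0. An exact permutation test of 3 against 3 could not reach the threshold and was not run.

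The members and lists were chosen with earlier results of these data known. Values per library are given for the 8 members with the lowest p, for the most counted member of each of 12 role groups, and for Irf1 and Ifitm2, chosen after their values were seen. The 2 genes with the lowest p are named per pathway list. The rest of the list of lymphocyte and granulocyte markers is not reported here.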

Additional observations from a re-analysis of the deposited data

How the results depend on the processing

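Over 14 alternatives, the count of members called was 0 except with no filter on low counts, where 5 were called (Ifit3, Bst2, Ifitm3, H2-K1 and Nlrc5, all lower in KO), and with DESeq2, where 1 was (Ifitm3). Of the 39 members, 31 kept their sign in every alternative. With 1 library left out in turn, the members called stayed at 0, the median log2 fold change of the members ran from -0.34 (without WT replicate 3) to -0.10 (without WT replicate 2), and the genes called overall ran from 36 (without KO replicate 1; 69 without WT replicate 1) to 260 (without KO replicate 2). Those called overall were 66 with library totals alone, 84 with at least 1 CPM in 3 libraries, 473 with sample quality weights, 824 with DESeq2 and 966 with no filter, against 169. The cause was not tested. Whether the replicate numbers pair the samples is not stated. Deviations of same-numbered libraries from their group means correlated at -0.21, 0.35 and 0.22. Libraries with different numbers were not compared, so these values cannot decide it. With a replicate block 155 genes and 0 members were called and the median of the members was -0.22, so no call on a member changed. With 3 libraries a group and members such as Oas1a at 139 counts in all, small differences in the lowest members could not be shown at this depth.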
